A study of Mus musculus with 7 samples.

Results

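The accessible regions around Sox9 are described here, in mammary tumor cells sorted by their expression of the Notch ligand gene Dll1. A region was counted to Sox9 when the Sox9 transcription start site (TSS) was the nearest TSS of any protein-coding gene to its midpoint. By this rule 65 of the 119215 regions of the study belonged to Sox9. The gene was chosen for its many regions called in Dll1- cells only, so its counts by list were chosen from measured values. They are given below as a description, without a test.

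Open chromatin was profiled by ATAC-seq, in which a transposase cuts and tags DNA that is free of nucleosomes. All samples came from MMTV-PyMT tumors, in which the mammary tumor virus promoter drives the polyoma middle T oncogene in mammary epithelium, and all carried an mCherry reporter of Dll1. Cells bearing CD45, CD31 or Ter119 were removed, and the rest were sorted into mCherry-positive Dll1+ tumor cells (3 samples) and mCherry-negative Dll1- tumor cells (4 samples). The samples carried 4 numbers in the labels, taken here as tumors, of which 3 gave both populations. Ages were not given in the sources used here. The authors pooled the samples of each group into 1 peak list, so no difference below could be set against the spread between replicates and no p-value is given.

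The lists held 132872 (Dll1+) and 148923 (Dll1-) rows, a row being 1 summit of a peak. Overlapping or touching rows of both lists were joined into 1 region, and regions were called shared, Dll1+ only or Dll1- only by the lists that contributed rows. The genome-wide background behind a summit, recovered from the deposited values, was 1.93 times as high in the Dll1- list as in the Dll1+ list, so the former was the deeper one. At that background the fewest reads under a called row were 9 (Dll1+) and 14 (Dll1-). With 1 list for each group, a site that is open in fewer cells and a site that is less open in each cell cannot be told apart.

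Sox9 encodes a high-mobility-group transcription factor that specifies cartilage and is required for testis formation. It also marks stem and luminal progenitor cells of the mammary gland. The gene sits in a large gene desert, and its transcription in each tissue is set by enhancers spread far upstream and downstream of it. In people, lesions of the distant desert cause skeletal and craniofacial disorders while the coding sequence is intact.

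Sox9 (ENSMUSG00000000567.5) lies on the plus strand at chr11:112782224-112787760 of GRCm38. The stretch in which its TSS was the nearest one ran over 1250 kb, chr11:111924194-113173989, most of it upstream of the TSS. The nearest protein-coding genes were Kcnj2, a potassium channel gene with its TSS 1716 kb upstream, and Slc39a11, a zinc transporter gene with its TSS 784 kb downstream. Sox9 had 5.20 regions per 100 kb of this stretch, against 4.37 per 100 kb over the genome. The density was uneven, with 28 regions upstream (3.26 per 100 kb) and 37 downstream (9.44 per 100 kb).

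The 6 windows below are the strongest distal sites within each class of list membership and are shown because the results turn on them. Each window holds the strongest summit of its region with 100 bp on either side, 201 bases in all, read 5′ to 3′ on the plus strand of GRCm38.p6, and capitals mark a match to the AP-1 consensus (TGACTCA or TGAGTCA). AP-1 is the family of Jun and Fos dimers. The first 4 windows are Dll1- only: the 3 strongest of these regions, at chr11:112615729-112615929 (166 kb upstream), chr11:113001159-113001359 (219 kb downstream) and chr11:112095436-112095636 (687 kb upstream), and the next strongest with the AP-1 letters, at chr11:112952446-112952646 (170 kb downstream). The fifth is the shared region with the highest fold in either list, reached in the Dll1+ list, at chr11:113074458-113074658 (292 kb downstream). The last is the strongest Dll1+ only region, at chr11:112925171-112925371 (143 kb downstream).
Sox9 -166 kb: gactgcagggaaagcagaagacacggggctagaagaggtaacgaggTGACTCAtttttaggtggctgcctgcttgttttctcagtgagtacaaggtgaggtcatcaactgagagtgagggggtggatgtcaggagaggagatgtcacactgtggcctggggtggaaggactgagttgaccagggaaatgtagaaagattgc
Sox9 +219 kb: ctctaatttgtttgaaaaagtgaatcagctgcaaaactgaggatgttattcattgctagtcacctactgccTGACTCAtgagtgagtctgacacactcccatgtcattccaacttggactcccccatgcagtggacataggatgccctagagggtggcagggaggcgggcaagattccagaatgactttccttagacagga
Sox9 -687 kb: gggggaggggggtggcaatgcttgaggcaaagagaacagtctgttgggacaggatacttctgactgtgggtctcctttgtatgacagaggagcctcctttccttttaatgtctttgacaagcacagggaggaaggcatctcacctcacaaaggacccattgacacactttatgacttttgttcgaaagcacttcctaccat
Sox9 +170 kb: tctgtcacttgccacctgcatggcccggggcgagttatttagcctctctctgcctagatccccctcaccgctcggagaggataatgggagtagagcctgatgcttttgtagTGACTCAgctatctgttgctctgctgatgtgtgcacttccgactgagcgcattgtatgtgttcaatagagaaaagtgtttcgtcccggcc
Sox9 +292 kb: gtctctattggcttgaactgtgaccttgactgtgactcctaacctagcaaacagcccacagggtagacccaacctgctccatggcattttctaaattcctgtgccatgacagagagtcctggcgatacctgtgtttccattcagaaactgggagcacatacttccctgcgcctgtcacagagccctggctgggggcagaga
Sox9 +143 kb: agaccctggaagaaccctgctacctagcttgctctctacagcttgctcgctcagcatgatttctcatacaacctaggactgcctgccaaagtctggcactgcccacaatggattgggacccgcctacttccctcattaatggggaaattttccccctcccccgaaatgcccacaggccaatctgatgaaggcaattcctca

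The AP-1 letters began 54 bp before the summit in the region 166 kb upstream, 29 bp before it in the region 219 kb downstream, and 11 bp after it in the region 170 kb downstream. The windows at -687, +292 and +143 kb held none of the consensus sequences searched for, which are listed further on. A match of letters describes the window and does not show that a factor was bound.

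Of the 65 Sox9 regions, 34 were shared (52.3%, Wilson 95% interval 40.4 to 64%), 25 were Dll1- only (38.5%, 27.6 to 50.6%) and 6 were Dll1+ only (9.23%, 4.30 to 18.7%). Over all regions of the study, 24.6% were Dll1- only and 9.01% were Dll1+ only. These intervals, like all others below, cover counting error only. Of the 31 Sox9 regions in 1 list, 80.6% were Dll1- only (63.7 to 90.8%), against 73.2% over all regions. Because the gene was chosen on this count, nothing is read from its distance to the background.

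The balance of the lists at Sox9 depended on how weak rows were treated. When Dll1- rows were kept only if, at the depth of the Dll1+ list, they would lie past its lowest 25% by -log10 p, 7 of 47 Sox9 regions were Dll1- only (14.9%) and 13 were Dll1+ only (27.7%). Over all regions the shares under that setting were 8.86% and 24.6%, so its filter, which touches the Dll1- list alone, turned the balance over the genome as well. When the same limit was set on both lists, 9 of 42 Sox9 regions were Dll1- only (21.4%), 8 were Dll1+ only (19.0%) and 25 were shared, against 13.6% and 15.6% over all regions. Both settings were chosen after the data had been seen. With rows at or above the median fold of their list 12 of 33 Sox9 regions were Dll1- only (36.4%) and 3 Dll1+ only (9.09%), against 21.0% and 9.44% over all regions. When only regions in 1 list had to reach that fold, 4 of 38 were Dll1- only (10.5%) and 0 Dll1+ only, against 7.49% and 1.90%. Filters that drop rows can also move a shared region into 1 list, by taking away its row in the other. Regions that were shared without a filter made up 8 of the 12 Dll1- only and 3 of the 3 Dll1+ only regions at the median fold. They made up 0 of 7 and 7 of 13 under the first depth limit, and 2 of 9 and 5 of 8 under the limit on both lists. The ratio of Dll1- only to Dll1+ only regions thus depended on the filter and turned under the first depth limit. The Dll1- only share of Sox9 was above that of all regions under these 4 filters. The filters use the same lists on which the gene was chosen, so nothing is read from this either.

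**Figure D1:**
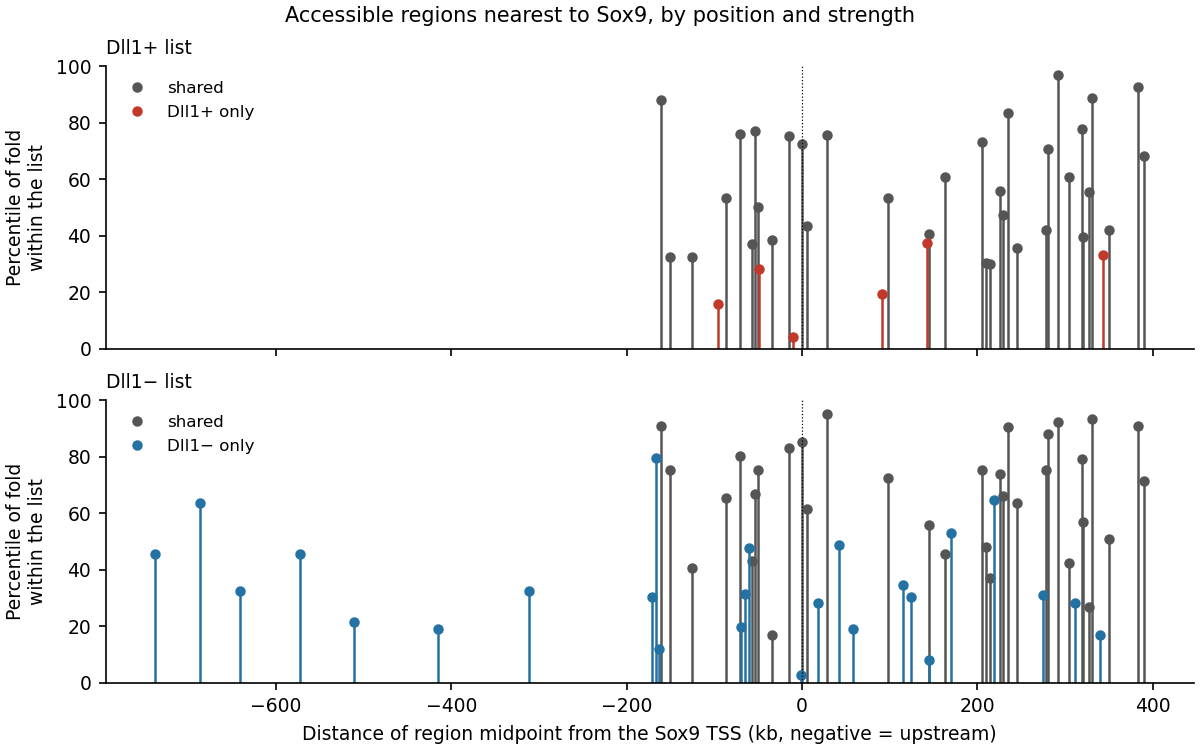
Accessible regions of Sox9 by distance from its TSS (x axis, kb, negative upstream) and by percentile of fold enrichment within their own list (y axis, 100 strongest), for the Dll1+ list (upper panel) and the Dll1- list (lower panel). Each stem is 1 region, grey for shared, red for Dll1+ only and blue for Dll1- only, and beyond 161 kb upstream the lower panel alone has stems.

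The regions were arranged differently on either side of the gene. Upstream, the 11 shared regions lay within 161 kb of the TSS and the 3 Dll1+ only regions between 10.3 and 96.0 kb. The 14 Dll1- only regions upstream reached from 0.63 to 738 kb, with a median distance of 241 kb. Downstream, the 23 shared regions ran from 6.15 to 391 kb (median 245 kb), the 11 Dll1- only regions from 18.7 to 340 kb (median 145 kb) and the 3 Dll1+ only regions from 91.9 to 344 kb. Of the regions counted to Sox9, those more than 161 kb upstream were thus in the Dll1- list alone, whereas downstream 23 of 37 were shared, the farthest at 391 kb.

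By distance class, 3 of 11 regions within 50 kb of the TSS were Dll1- only (27.3%), against 23.6% of all regions at that distance from their nearest TSS. At 50 to 200 kb the count was 11 of 24 (45.8%), against 26.8%. At 200 to 500 kb it was 6 of 25 (24.0%), against 27.0%, and beyond 500 kb it was 5 of 5, against 24.1%. The classes therefore did not follow a single trend with distance. The 200 to 500 kb class joined an upstream part with 2 Dll1- only regions and no other to a downstream part with 18 shared, 1 Dll1+ only and 4 Dll1- only regions. In the 50 to 200 kb class the sides were closer, with 7 shared, 1 Dll1+ only and 6 Dll1- only regions upstream and 3, 2 and 5 downstream.

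**Figure D2:**
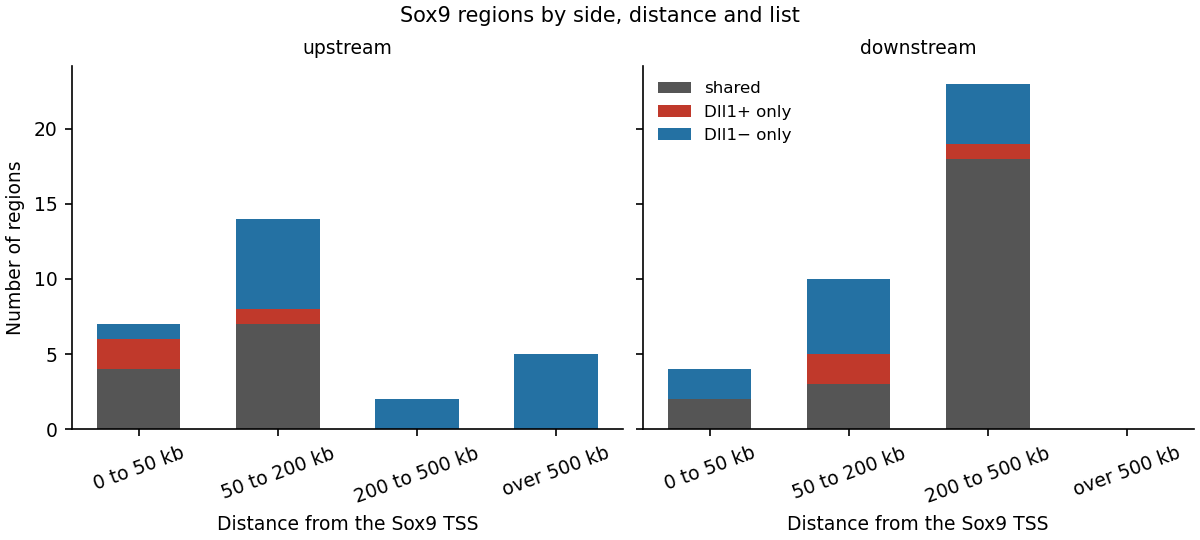
Number of Sox9 regions (y axis) by distance class (x axis), upstream and downstream of the TSS, stacked by list membership. Upstream, all 7 regions beyond 200 kb were Dll1- only, and downstream 18 of the 23 regions at 200 to 500 kb were shared.

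The longest unbroken series of Dll1- only regions at Sox9 held its 10 outermost upstream regions, from 738 to 163 kb before the TSS. It spanned 575 kb, chr11:112044482-112619490, with no shared and no Dll1+ only region between its members. Over the genome there were 20866 such series with a median length of 1, and none was longer than 10. The only other series of 10 covered 49.9 kb at chr6:115944081-115993988, from H1foo to Plxnd1, and was looked up after its length had been seen. The gene was picked for its Dll1- only count, so the length of the series is a description.

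Members of this upstream series were weak to moderate. Their fold enrichment, the reads at the summit over the local background, ranged from 2.64 to 9.36, and their percentile in the Dll1- list from 11.8 to 79.6 (median 32.6). Reads at the summits ranged from 24 to 86, and 8 of the 10 summits stood on the genome-wide background. The AP-1 letters were present in 3 of the 10 windows. With rows at or above the median fold of their list the longest series at Sox9 fell to 2 regions, and with the depth limit above it fell to 3, whether set on the Dll1- list or on both lists. With equal numbers of rows in both lists it was 10. When transcript starts of genes of every biotype were used, which left 6 regions nearest to Sox9, it was 1.

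The strongest member, at chr11:112615561-112616052 and 166 kb upstream, had a fold of 9.36, percentile 79.6 and 86 reads in the Dll1- list. It stood among the close group formed with its neighbours at 171 and 163 kb, which had folds of 3.66 and 2.64. The next region towards the gene, 161 kb upstream at chr11:112620811-112621874, was shared and strong in both lists, with folds of 12.9 (Dll1+) and 13.4 (Dll1-). A strong shared site and the strongest Dll1- only site of Sox9 thus lay near each other in the desert, with the weak region at 163 kb between them. Farther out, the region 687 kb upstream at chr11:112095197-112095672 had a fold of 6.46, percentile 63.8 and 52 reads.

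The series ended near the edge of what the rule took in. The outermost upstream region was 737.6 kb from the TSS, Dll1- only and at percentile 45.7. The next region out, 868.2 kb from the Sox9 TSS and nearer to Kcnj2, was shared, at percentiles 38.6 (Dll1+) and 56.6 (Dll1-). Downstream, the last region counted to Sox9 was 390.6 kb away and shared (percentiles 68.4 and 71.3), and the first one nearer to Slc39a11 was 393.3 kb away and shared (percentiles 46.0 and 43.6). The part of the upstream desert nearer to Kcnj2 held 23 regions, of which 11 were shared, 12 were Dll1- only and 0 were Dll1+ only. Over the whole of its regions Kcnj2 had 13 shared and 13 Dll1- only regions of 26, and its neighbour Kcnj16 had 12 shared regions and no other. On the downstream side, Slc39a11 had 28 shared, 1 Dll1+ only and 12 Dll1- only regions, and the somatostatin receptor gene Sstr2 had 2 shared regions and 1 Dll1- only region.

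At the gene itself, the promoter region at chr11:112781900-112782507 was shared. Its folds were 8.64 for Dll1+, on 192 reads, and 11 for Dll1-, on 387 reads. Its percentiles were 72.4 (Dll1+) and 85.2 (Dll1-). The promoter was thus called in both populations and ranked higher in the Dll1- list. Local background there was raised, to 5.71 (Dll1+) and 4.74 (Dll1-) times the genome-wide one. A second, small region within the promoter class, at chr11:112781436-112781752 and 0.63 kb upstream, was Dll1- only with a fold of 1.98, percentile 2.74, on 67 reads over a background 4.64 times the genome-wide one. It was the lowest in rank of the 25 Dll1- only regions.

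The 5 strongest shared regions were all distal. The region 292 kb downstream, at chr11:113074167-113074804 in an intron of the long non-coding RNA gene 2610035D17Rik, had the highest fold of all, 18.4 (percentile 96.9, 98 reads) for Dll1+ and 14.3 (percentile 92.4, 147 reads) for Dll1-. The region 29.0 kb downstream, at chr11:112810421-112811952, had folds of 9.25 (Dll1+) and 16.2 (Dll1-), at percentiles 75.5 and 95. These regions differed in which list ranked them higher. The region 383 kb downstream had folds of 15.0 (Dll1+) and 13.5 (Dll1-), the region 331 kb downstream 13.1 and 14.9, and the region 161 kb upstream 12.9 and 13.4. In these last 3 regions the percentiles in the 2 lists lay no more than 4.71 apart, so the strongest long-range sites other than the one at 29.0 kb lay close in rank in Dll1+ and Dll1- tumor cells.

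Over the 34 shared regions the median percentiles were 55.8 (Dll1+) and 71.9 (Dll1-), against 67.3 and 70.7 over all shared regions. The difference within a region, Dll1+ minus Dll1-, had a median of -7.84 and ran from -43.0 to 28.6, against a median of -1.67 over all shared regions. In 27 of the 34 regions the Dll1- percentile was the higher (79.4%), against 59.0% of all shared regions. It was higher by over 10 percentiles in 15 of 34 (44.1%), against 25.1%, and lower by over 10 percentiles in 5 of 34 (14.7%), against 15.2%. Sox9 sites that both populations had open thus ranked lower among the sites of Dll1+ cells more often than shared sites did in general. No replicate was at hand to test this, and the gene had been picked on the Dll1- only count of the same lists.

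**Figure D3:**
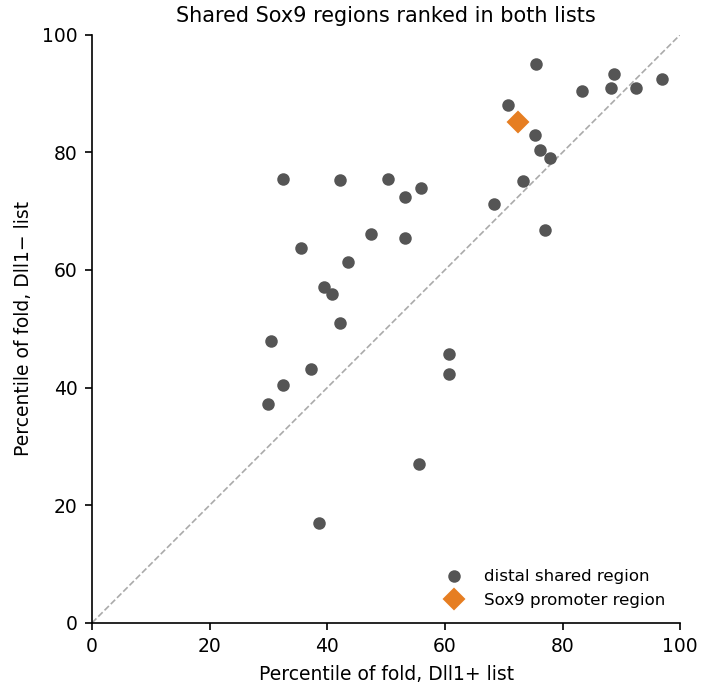
Percentile of fold enrichment for Dll1+ (x axis) and Dll1- (y axis) for the 34 shared Sox9 regions, with the promoter region as a diamond and a dashed line where both are equal. Above the line lie 27 regions and below it 7, and the regions strongest in both lists lie near the line.

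The largest gap was at the region 151 kb upstream, chr11:112631147-112631640, with a Dll1+ fold of 4.22 (percentile 32.5, 19 reads) and a Dll1- fold of 8.42 (percentile 75.5, 68 reads). The region 279 kb downstream, at chr11:113060967-113061353, followed with 4.89 and 8.36 (percentiles 42.1 and 75.3). Both sites were called in each list but stood at a moderate rank in Dll1+ cells and a high one in Dll1- cells. The largest gap the other way was at the region 327 kb downstream, chr11:113109143-113109466, with a Dll1+ fold of 6.13 (percentile 55.6) and a Dll1- fold of 3.46 (percentile 27.0). The region 34.3 kb upstream had 4.64 and 2.93 (percentiles 38.6 and 17.0). Beyond the strongest ones, these regions were picked for naming after their values had been seen.

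Reads at the shared summits were compared as well, and Sox9 again stood above all shared regions on the Dll1- side. The reads at the summit in the Dll1- list over those in the Dll1+ list had a median of 1.90 over the 34 shared Sox9 regions (0.855 to 5.13), against 1.63 over all shared regions. The ratio of the genome-wide backgrounds was 1.93, and 16 of the 34 Sox9 regions exceeded it (47.1%), against 30.3% of all shared regions. On this scale Sox9 regions thus divided about evenly around the ratio of backgrounds, where most shared regions of the study lay below it. The highest ratios were those of the regions at 279 kb (5.13, from 31 and 159 reads), 281 kb (4.22, from 50 and 211 reads) and 29.0 kb downstream (4.14, from 51 and 211 reads). The first of these and the second were next to each other within introns of 2610035D17Rik.

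The 25 Dll1- only regions of Sox9 were about as strong as such regions elsewhere. Their percentile in the Dll1- list had a median of 31.1 (2.74 to 79.6), against 32.6 over all Dll1- only regions, and their reads a median of 35 (20 to 86), against 36. Above percentile 50 stood 4 of them (16%), against 22.3%. On the genome-wide background stood 17 of them (68.0%), against 57.7%, which left 8 whose local background was higher. After the region at -166 kb the strongest were those 219 kb downstream at chr11:113001071-113001431 (fold 6.59, 53 reads), 687 kb upstream (6.46, 52 reads), 170 kb downstream at chr11:112952374-112952732 (5.24, 42 reads) and 42.1 kb downstream at chr11:112824165-112824576 (4.88, 39 reads). The last was in the promoter class of the non-coding gene 4933434M16Rik.

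The Dll1- list had the higher background, so its reads were also rescaled by the ratio of backgrounds. Divided by 1.93, the reads at the 25 summits came to between 10.4 and 44.7 (median 18.2). All 25 would then have reached the lowest -log10 p of the Dll1+ list, 2.00, as would 99.7% of all Dll1- only regions, so this limit set hardly any region apart. Their place in the Dll1+ list, ranked by -log10 p, would have had a median percentile of 12.5 (0.510 to 62.9), against 15.1 for all Dll1- only regions, and 7 of 25 (28.0%) would have stood past its lowest 25%, against 29.9%. The region at -166 kb would have had 44.7 reads and stood at percentile 62.9. Rescaled in this way, most Dll1- only regions of Sox9 would have stood within the lowest 25% of the Dll1+ list. The highest of the 7 regions past it were the -166 kb region and those at +219 kb (percentile 42.4) and -687 kb (percentile 40.4). With the ratio of median reads at shared summits, 1.64, in place of 1.93, 10 of the 25 would have stood past the lowest 25%. Whether depth accounts for these calls was not tested.

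**Figure D4:**
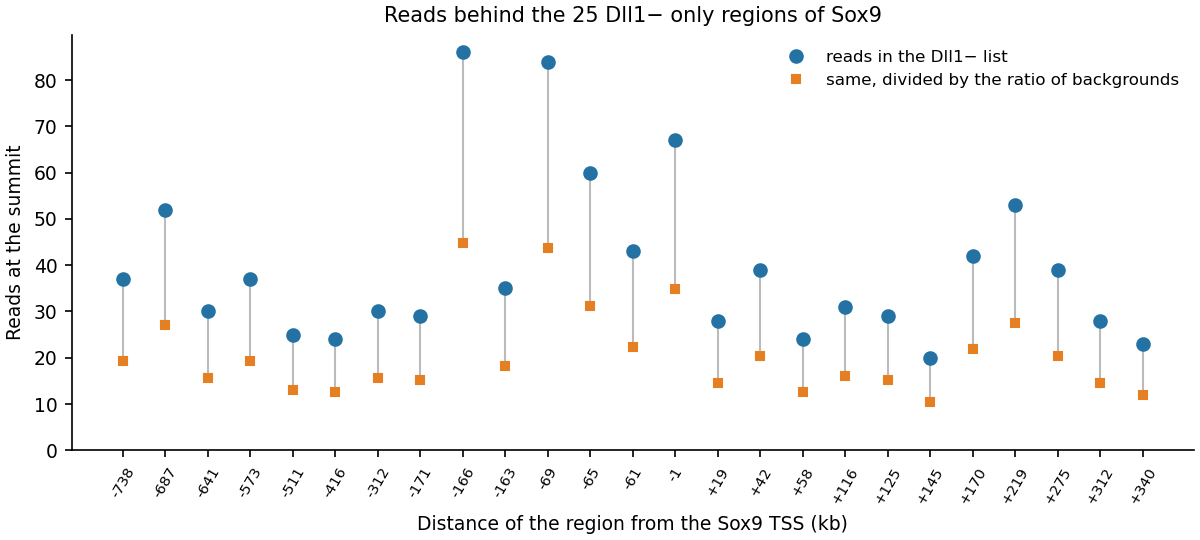
Reads at the summits of the 25 Dll1- only regions of Sox9 (y axis), ordered and labelled by distance from the TSS (x axis, kb), as recovered from the Dll1- list (blue circles) and divided by the ratio of backgrounds (orange squares). The squares lie between 10.4 and 44.7 reads, and the local background, which is not drawn, was above the genome-wide one at 8 of the 25 regions.

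The 6 Dll1+ only regions had a median fold of 3.66, against 3.68 for the 25 Dll1- only regions of Sox9. The lists differed in background, so these folds are not on the same scale. Upstream, the region 96.0 kb away, in an intron of the non-coding gene BC006965, had a fold of 3.17 on 14 reads, the region 48.9 kb away 3.94 on 29 reads, and the region 10.3 kb away 2.31 on 39 reads over a background 4.36 times the genome-wide one. Downstream, the region at 91.9 kb had a fold of 3.38 on 15 reads, the region at 143 kb 4.57 on 21 reads, and the region at 344 kb 4.23 on 25 reads. Their percentile in the Dll1+ list had a median of 23.7 (4.11 to 37.4), against 29.4 over all Dll1+ only regions. Above percentile 50 stood 0 of 6, against 15.4%. The Sox9 regions called in the Dll1+ list alone were thus all among the lower ranks of that list. A missing row in the Dll1- list does not show that a site was closed in Dll1- cells.

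Some calls in 1 list lay close beside a shared region. The Dll1+ only region at 143 kb downstream, chr11:112925042-112925514, was followed by a shared region at chr11:112926454-112927036 and a Dll1- only region at chr11:112927110-112927340, the last of them 145 kb from the TSS. The Dll1+ only region at chr11:112733219-112733507 began just after a shared region that ended at 112733112. The Dll1- only region at chr11:112712790-112713041 likewise followed the shared promoter region of BC006965 at chr11:112711251-112712246. The last pair shared a raised background, 3.73 and 3.77 times the genome-wide one in the Dll1- list. At such places a call in 1 list lay beside a site that both lists held.

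By annotation, 20 of the 25 Dll1- only regions were intergenic, 3 lay in introns of 2610035D17Rik, 1 at the promoter of 4933434M16Rik and 1 at that of Sox9. Of the shared regions, 20 were intergenic, 11 lay in introns of 2610035D17Rik, 1 in an intron and 1 at the promoter of BC006965, and 1 at the Sox9 promoter. The Dll1+ only regions were intergenic in 4 cases and intronic in 2. The non-coding gene 2610035D17Rik, downstream of Sox9, thus held 11 of the 34 shared sites.

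Shared regions were wider, with a median of 627 bp, against 292 bp for Dll1- only and 290 bp for Dll1+ only regions. A shared region spans the joined rows of both lists, so part of this difference can follow from the joining. More than 1 row in a list was present in 15 of 34 shared, 2 of 25 Dll1- only and 1 of 6 Dll1+ only regions of Sox9, against 42.4%, 9.67% and 12.6% over all regions. The GC content of the windows had a median of 52.2% in shared, 48.8% in Dll1- only and 48.5% in Dll1+ only regions. Over all regions the medians were 50.7%, 49.3% and 46.8%. Sox9 regions in 1 list were thus narrow sites, mostly with a single summit, of a width (292 bp and 299 bp over all Dll1- only and Dll1+ only regions) like that found elsewhere.

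The AP-1 letters were the most frequent of the consensus sequences searched, all of which were read on both strands of the 201-base windows. They were present in 12 of the 25 Dll1- only windows of Sox9 (48.0%, 30.0 to 66.5%), against 30.4% of all Dll1- only windows, which lay at the lower end of that interval. In shared windows they were present in 8 of 34 (23.5%, 12.4 to 40%), against 15.4%, and in Dll1+ only windows in 1 of 6 (3.01 to 56.4%), against 4.40%. Over the 65 windows the count was 21 (32.3%, 22.2 to 44.4%), against 18.1% of all 119215 windows, but this total mixes the classes, and Sox9 was chosen for the class in which the letters were most frequent. The order from Dll1- only to Dll1+ only was the same at Sox9 as over the genome. With 25 windows the Dll1- only share could not be told apart from that of Dll1- only regions elsewhere.

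**Figure D5:**
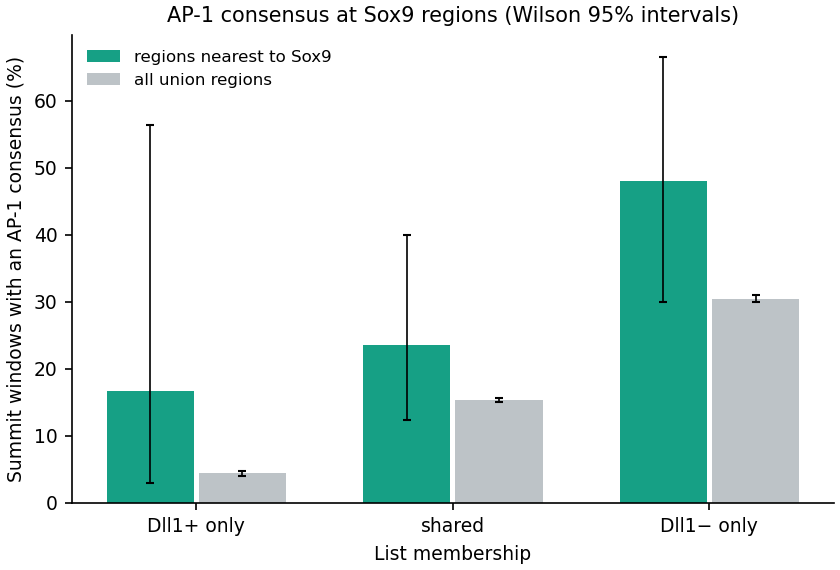
Share of summit windows with an AP-1 consensus (y axis, percent) by list membership (x axis), for the regions nearest to Sox9 (green) and for all regions (grey), with Wilson 95% intervals. The share was 48.0% in Dll1- only and 23.5% in shared windows of Sox9, and the Sox9 intervals are wide because they rest on 6 to 34 windows.

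Other consensus sequences were rare at Sox9. SOX letters (AACAAAG or AACAATG), which Sox9 protein itself can bind, were present in 5 of 65 windows (7.69%, 3.33 to 16.8%), against 11.7% over all regions, and TEAD letters (ACATTCC) in 6 (9.23%), against 5.07%. RUNX letters (TGTGGTT) were present in 2, FOX letters (TGTTTAC) in 3 and RBPJ letters (GTGGGAA), the site of the Notch effector, in 3 (4.62%), against 5.06%, 3.73% and 4.30% over all regions. GRHL letters (AACCNGTT), read by grainyhead-like factors of epithelia, were present in 3 windows (4.62%, against 3.35%), all of them shared. The NF-kB consensus was present in 3 windows (4.62%, against 3.02%), the CTCF consensus in 1 (1.54%, against 4.28%) and the ETS letters (CCGGAAGT) in 0, against 1.07%. For each of these sequences the share over all regions lay within the Wilson 95% interval of the Sox9 share. The motifs were searched one by one, and a stretch of letters could count for more than 1 of them.

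Marker promoters were read to see which cells the lists could hold. The promoters of 7 of 7 luminal markers, among them Krt8 and Epcam, were called in both lists, as were 3 of 6 basal markers, whereas those of Krt5, Krt14 and Trp63 were called in neither. Of 8 fibroblast markers the promoter of Pdgfra was called in both lists and those of Col1a2 and Pdgfrb in the Dll1- list alone, while Col1a1, Col3a1, Dcn, Lum and Thy1 were called in neither. The regions nearest to the 8 fibroblast genes were shared in 33 cases, Dll1+ only in 1 and Dll1- only in 33, where over all regions 9.01% were Dll1+ only and 24.6% Dll1- only. The Dll1- only share was thus 49.3% of 67 regions at fibroblast genes. It was 38.7% of 31 at immune genes, 34.3% of 70 at basal genes, 33.3% of 54 at endothelial genes, 12.5% of 104 at luminal genes and 0 of 8 at erythroid genes. Loci of several other cell types therefore had a share above that of all regions, as Sox9 did, and luminal loci one below it. Of 6 immune markers 1 promoter, that of Csf1r, was called for Dll1- and 0 for Dll1+, with Ptprc called in neither, and 1 of 5 endothelial and 1 of 3 erythroid promoters were called in both. Sox9 is active in several mesenchymal cells, and the part of other cell types in its Dll1- only regions was not tested.

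Other Sox genes and genes tied to Sox9 by function were counted in the same way. The 18 other Sox genes had 294 regions, of which 198 were shared, 69 Dll1- only (23.5%) and 27 Dll1+ only (9.18%), close to the 24.6% and 9.01% of all regions. More Dll1- only than Dll1+ only regions were found at 12 of these genes, fewer at 3 and as many at 3. Sox4, a family member active in breast tumors, had 66 regions, with 47 shared, 13 Dll1- only and 6 Dll1+ only. Sox4 thus had about as many regions as Sox9, fewer of them in the Dll1- list alone. Sox8, of the same subgroup as Sox9, had 2 shared and 2 Dll1- only regions, and Sox10, the third gene of the subgroup, had 9 shared and 1 Dll1+ only. Of the remaining family members with at least 10 regions in 1 list, Sox11 had 13 Dll1- only and 5 Dll1+ only, Sox2 8 and 4, and Sox5 7 and 5.

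The 10 cartilage genes taken as targets of Sox9, among them the collagen gene Col2a1 and the aggrecan gene Acan, had 96 regions, with 63 shared, 23 Dll1- only (24.0%) and 10 Dll1+ only. The 9 mammary stem and progenitor genes had 148 regions, with 108 shared, 23 Dll1- only (15.5%) and 17 Dll1+ only. Within the latter, the receptor gene Kit had 23 shared, 5 Dll1- only and 7 Dll1+ only regions, and the forkhead gene Foxc1 had 25, 7 and 5. Of 17389 protein-coding genes with a region, 8983 had more Dll1- only and 1970 more Dll1+ only regions. The cartilage share was close to the 24.6% of all regions, and the progenitor share was below it.

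Among the 218 genes with at least 40 regions, Sox9 ranked number 3 by its count of Dll1- only regions and number 6 by their share, for which the median was 22.9% and the highest was 41.5%, at Arhgap42. The 5 genes whose shares of shared, Dll1+ only and Dll1- only regions were closest to those of Sox9, by Euclidean distance, were Rgs3 (distance 0.012), Dap (0.017), Rbms3 (0.021), Jarid2 (0.031) and Irx3 (0.033). They had between 43 and 50 regions each, of which 36.0 to 38.6% were Dll1- only. Their regions lay nearer than those of Sox9, whose median distance from the TSS was 166 kb, at Rgs3 (21.3 kb), Dap (34.4 kb), Irx3 (121 kb) and Jarid2 (151 kb), and farther at Rbms3 (183 kb). Myc, another gene with a long desert, had 96 regions at a median distance of 250 kb, with 57 shared, 8 Dll1+ only and 31 Dll1- only (32.3%).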

How the data were processed

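ATAC-seq peak lists of Dll1+ (3 samples pooled) and Dll1- tumor cells (4 samples pooled) were analysed. Per group, peaks were called by the authors with the ENCODE ATAC-seq pipeline, and the optimal set was deposited. Aligner, peak caller and thresholds are not given in the sources used here. The submitters' processing notes name mm10 and GRCm38. No row of either list extended past a GRCm38 chromosome end, and 9.55% (Dll1+) and 8.77% (Dll1-) of summits lay within 100 bp of a TSS, against 0.755% and 0.774% after a shift of 10000 bp. The deposited fold enrichment is the ratio of reads at a summit to its local background, by the authors. The deposited -log10 p-value is the authors' own, and the deposited -log10 q-value and the deposited score were not used further.

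Regions were assigned to the nearest TSS of any transcript of a protein-coding gene in the GENCODE annotation. A percentile is the rank of the fold of the strongest row of a region among all rows of its list. The promoter class took in midpoints up to 1000 bp before or 100 bp after a TSS. Reads and backgrounds were recovered from the fold and -log10 p-value by solving a Poisson model with 1 added to reads and background. All but 1 row, in the Dll1- list, were solved. The recovery was tested on simulated data. Intervals are Wilson 95% intervals, and without molecular identifiers reads may repeat a molecule.

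The members, gene lists and consensus sequences were chosen with earlier results of these data known. Genes named were Sox9, its 2 protein-coding neighbours on each side, genes of the lists with at least 10 regions in 1 list together with Sox4, Sox8 and Sox10, the 5 genes most like Sox9, and Myc. Regions named were the promoter, the 5 strongest shared and Dll1- only ones, all Dll1+ only ones and the longest Dll1- only series. Others were chosen after their values were seen. Alternatives were other overlaps, thresholds, depths, gene assignments, rankings and windows. Sequence windows were read from the RefSeq GRCm38.p6 genome. Python 3.11.15 with numpy 2.4.6, pandas 2.3.3 and scipy 1.17.1 was used.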

Additional observations from a re-analysis of the deposited data

How the results depend on the processing

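Of 79 alternative values, 47 stayed within 1.5 times of the value reported or within its spread and 32 moved. Summits within 100 bp, equal numbers of rows, Dll1- rows callable at the Dll1+ depth, the summit as the point assigned and gene 5′ ends left the region counts within that limit, as did the other rankings, windows and read ratio for their own results. A reciprocal overlap of 50% gave 10 Dll1+ only regions. Rows at or above the median fold gave 33 regions, of which 18 were shared, 3 Dll1+ only and 12 Dll1- only, with 3 Dll1- only regions over 50 kb upstream and a longest series of 2, and gave 43 Dll1- only regions at the Sox family, 10 at the cartilage genes and 10 Dll1+ only regions at the progenitor genes. Of these, 8 of the 12 and 3 of the 3 at Sox9, 24 of the 43, 4 of the 10 and 8 of the 10 were shared without the filter. An asymmetric threshold, in which a region in 1 list had to reach the median fold, left 38 regions, 0 Dll1+ only and 4 Dll1- only. Both of these keep fewer rows by construction. Added after seeing the data, a limit at the lowest 25% of the Dll1+ list on Dll1- rows gave 13 Dll1+ only and 7 Dll1- only regions, with 5 over 50 kb upstream, 2 over 50 kb downstream and a longest series of 3, so that the ratio of the lists at Sox9 turned. The same limit on both lists gave 42 regions, 9 of them Dll1- only, with 6 upstream, 3 downstream and a longest series of 3. Transcript starts of every biotype left 6 regions nearest to Sox9, of which 4 were shared, 1 Dll1+ only and 1 Dll1- only, with a longest series of 1, because non-coding genes then took the rest. Within 50 kb there were 11 regions, of which 6 were shared, 2 Dll1+ only and 3 Dll1- only. No paired analysis was possible because each list pools the samples of its group, and for the same reason no replicate could be left out. Depth limits the Dll1+ list, where 9 reads were the fewest called.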
